A study of Mus musculus with 2 samples.

Results

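The genes described here encode the proteins of the cytosolic ribosome, taken as every symbol that begins with Rps or Rpl and a digit, with Rplp and a digit, or that reads Rpsa. Symbols that carry -ps, which marks pseudogenes, and the Rps6k kinases were left out. The rule found 89 symbols among the 15181 genes of 22 tables, of which 84 appeared in at least 1 of 18 tables of cell clusters and all 89 in each of 4 tables of fibroblast subclusters. The rule left out 15 -ps symbols and 8 kinase symbols. By symbol, 34 members belong to the small subunit (40S) and 54 to the large subunit (60S). The remaining symbol, Rps19bp1, encodes a protein that binds the small subunit protein Rps19 and is no ribosomal protein itself.

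Cells came from the ventricles of infarcted mouse hearts and were profiled as 2 droplet single-cell libraries, 1 per genotype. The PostnMCM control library came from mice in which the Postn locus drives a Cre recombinase that tamoxifen switches on. Postn is turned on in cardiac fibroblasts as they are activated by injury. The other library came from Yapfl/fl;Wwtr1fl/+;PostnMCM mice, in which both Yap1 alleles and 1 Wwtr1 allele can be deleted by that Cre, and is called the library labelled depleted. Both groups were adult mice with ligation of the left anterior descending coronary artery that carried an eGFP reporter transgene at the R26 locus, ate chow with 0.4 g/kg tamoxifen citrate from the infarction on, and were collected 6 days after it per the labels. The study's own methods give a later day, and the number of hearts pooled into each library is not given in the sources used here.

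Each ribosome joins a small subunit, which reads the messenger RNA, to a large subunit, which forms peptide bonds. Ribosomal protein transcripts are among the most abundant of every cell, and many of them share a terminal oligopyrimidine tract through which the mTOR pathway controls their translation. In the healing infarct, activated fibroblasts are known for heavy protein secretion. A number of ribosomal protein genes also have paralogs or intronless retrocopies elsewhere in the genome.

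The tables give, for each gene and cluster, the share of cells of each library with a corrected count above 0. Differences below are the share in the library labelled depleted minus the share in the PostnMCM control library, in percentage points, and a difference of at least 10 points in either direction is called apart. With 1 library per genotype no test was possible, and the tables do not state the number of cells or counts behind a share, so every value describes these 2 libraries without an error. In several populations shares were coarse. The smallest share above 0 of any gene was 10% in the library labelled depleted of subcluster 4, which equals the limit for apart, 9.1% in that library of dendritic cells and in the control library of T cell cluster 10, and 9.1% and 5.9% in neutrophil cluster 18. Elsewhere it was 0.2% to 5.9%. A share that stands at 100% in both libraries cannot show a difference in level. Tables of clusters had been limited by the authors to genes that passed a minimum share of 25% in either library and a minimum size of their own fold change of 0.25 on the log2 scale, so a listing says that a gene passed, not in which direction. Tables of subclusters carried no limit.

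The targeted genes appeared in the subcluster tables alone. In subclusters 0, 3, 4 and 5, Yap1 shares were 46.2% and 56.2%, 23.3% and 43.5%, 57.5% and 40%, and 30.4% and 47.6%, control library first. Wwtr1 shares in the same order were 81.4% and 90.6%, 93.3% and 91.3%, 80% and 60%, and 100% and 85.7%. Yap1 was thus lower in the library labelled depleted in subcluster 4 only, and Wwtr1 in subclusters 3, 4 and 5. Of 7 fibroblast markers, 4 to 5 stood at or above 95% in both libraries of each subcluster. The summed share of 5 neutrophil markers was lower in the library labelled depleted in all 4 subclusters, at 103.1 to 142.8 against 208.7 to 255.2, with 2 to 5 of the 5 lower by at least 10 points. Sums were also lower for 3 erythroid markers, at 0 to 17.3 against 47.7 to 83.3, for 3 cardiomyocyte markers, at 3.1 to 20 against 16.5 to 32.5, and, in all subclusters but subcluster 4, for 5 macrophage markers, as in subcluster 0 with 178.1 against 270.4. Other lists went the opposite way. The sum of the 2 T cell markers in the tables was higher in the library labelled depleted in subclusters 3, 4 and 5, at 40 to 57.2 against 13 to 16.7, and that of 3 endothelial markers was higher in all 4, at 14.3 to 53.1 against 8.6 to 47.5. For 3 B cell markers the sums were higher in subclusters 0 and 3 and lower in subclusters 4 and 5, and stayed at or below 17.3. The part of other cells' RNA in the results below was not tested. Every cell type makes ribosomal proteins, so no cluster could serve to judge background for them.

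All 89 symbols were found in the GENCODE annotation of the GRCm39 genome, 86 as protein-coding genes and 3 (Rpl32l, Rpl37rt and Rpl6l) as processed pseudogenes. The sequences that matter most here are those of copies that are hard to tell apart from their source gene, since a read from the shared stretch matches both places. How such reads were handled in counting was not tested. Rps6 lies at chr4:86748406-86775674 on the minus strand, and Rps6-ps4, annotated as a processed pseudogene, at chr2:75021417-75022166 on the minus strand. All 750 coding bases of Rps6 were identical in Rps6-ps4, whose annotated span holds no other base. The last 90 coding bases, stop codon included, are given 5′ to 3′ for Rps6 and Rps6-ps4 and for Rps27 (chr3:90119819-90120977, minus strand) and Rps27rt (chr9:114811434-114811807, minus strand), whose 255 coding bases were also identical. No base is in capitals because none differs within either pair.

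Rps6 and Rps6-ps4: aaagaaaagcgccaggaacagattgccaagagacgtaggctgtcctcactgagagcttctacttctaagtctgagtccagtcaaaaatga
Rps27 and Rps27rt: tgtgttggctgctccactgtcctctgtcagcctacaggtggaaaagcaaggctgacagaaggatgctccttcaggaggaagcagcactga

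For the retrocopies of Rpl34, Rpl27a and Rpl37 the same stretch is given for source and copy, with differing bases in capitals. Rpl34-ps1 (chr6:71101594-71101947, plus strand) matched 352 of the 354 coding bases of Rpl34 (chr3:130519106-130524155, minus strand). Rpl27a-ps4 (chr13:99040732-99041178, plus strand) matched 441 of the 447 coding bases of Rpl27a (chr7:109118254-109121583, plus strand). Rpl37rt (chr5:115241287-115241580, minus strand) matched 293 of the 294 coding bases of Rpl37 (chr15:5145959-5153877, plus strand). All 3 copies are annotated as processed pseudogenes, that of Rpl37 as a transcribed one.

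Rpl34: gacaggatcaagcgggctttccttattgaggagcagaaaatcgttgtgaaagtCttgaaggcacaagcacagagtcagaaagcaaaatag
Rpl34-ps1: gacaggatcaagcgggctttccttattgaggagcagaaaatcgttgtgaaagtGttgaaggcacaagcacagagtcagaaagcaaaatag
Rpl27a: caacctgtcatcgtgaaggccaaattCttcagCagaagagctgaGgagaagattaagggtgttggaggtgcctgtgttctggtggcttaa
Rpl27a-ps4: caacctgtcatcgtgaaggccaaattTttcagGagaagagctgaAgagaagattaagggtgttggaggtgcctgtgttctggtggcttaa
Rpl37: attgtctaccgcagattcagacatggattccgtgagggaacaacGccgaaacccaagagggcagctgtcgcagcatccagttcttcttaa
Rpl37rt: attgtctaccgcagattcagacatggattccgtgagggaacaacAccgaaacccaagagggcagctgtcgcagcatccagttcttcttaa

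The question of which members differ in all cell types was first put to the listings. No member was listed in all 18 cluster tables. Among the members listed most often, Rps25 and Rps3a1, proteins of the small subunit, were each listed in 16, Rplp1, an acidic protein of the large subunit's stalk, in 14, and the small subunit proteins Rps6 and Rps15a in 12 each. In all, 6 of 89 members stood in at least 12 tables, where 0.587% of all 6477 genes of the cluster tables did (38 genes). Of the 6, 5 belong to the small subunit and 1 to the large. Beyond them, Rpl23a and Rpl41 were listed in 11 tables, Rpl30 and Rps15 in 10, and Rpl38 in 9. Another 54 members were listed in 4 to 8 tables and 19 in 1 to 3, and the median was 5.

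The missing tables of the leading members were few and partly shared. Rps3a1 was absent from the tables of T cell cluster 10 and neutrophil cluster 18, and Rps25 from those of T cell clusters 7 and 10. Rplp1 was absent from clusters 1, 2, 5 and 7, which the study names neutrophils, B cells, fibroblasts and T cells. The other stalk proteins Rplp0 and Rplp2 were listed in 7 tables each, and Rpsa, a small subunit protein also known as the laminin receptor, in 5. At the other end, Rps21 was listed only for T cell cluster 7 and Rps27 only for T cell cluster 4. Rpl32l, Rpl39l, Rpl3l, Rpl6l and Rps19bp1 were listed in no cluster table.

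**Figure D1:**
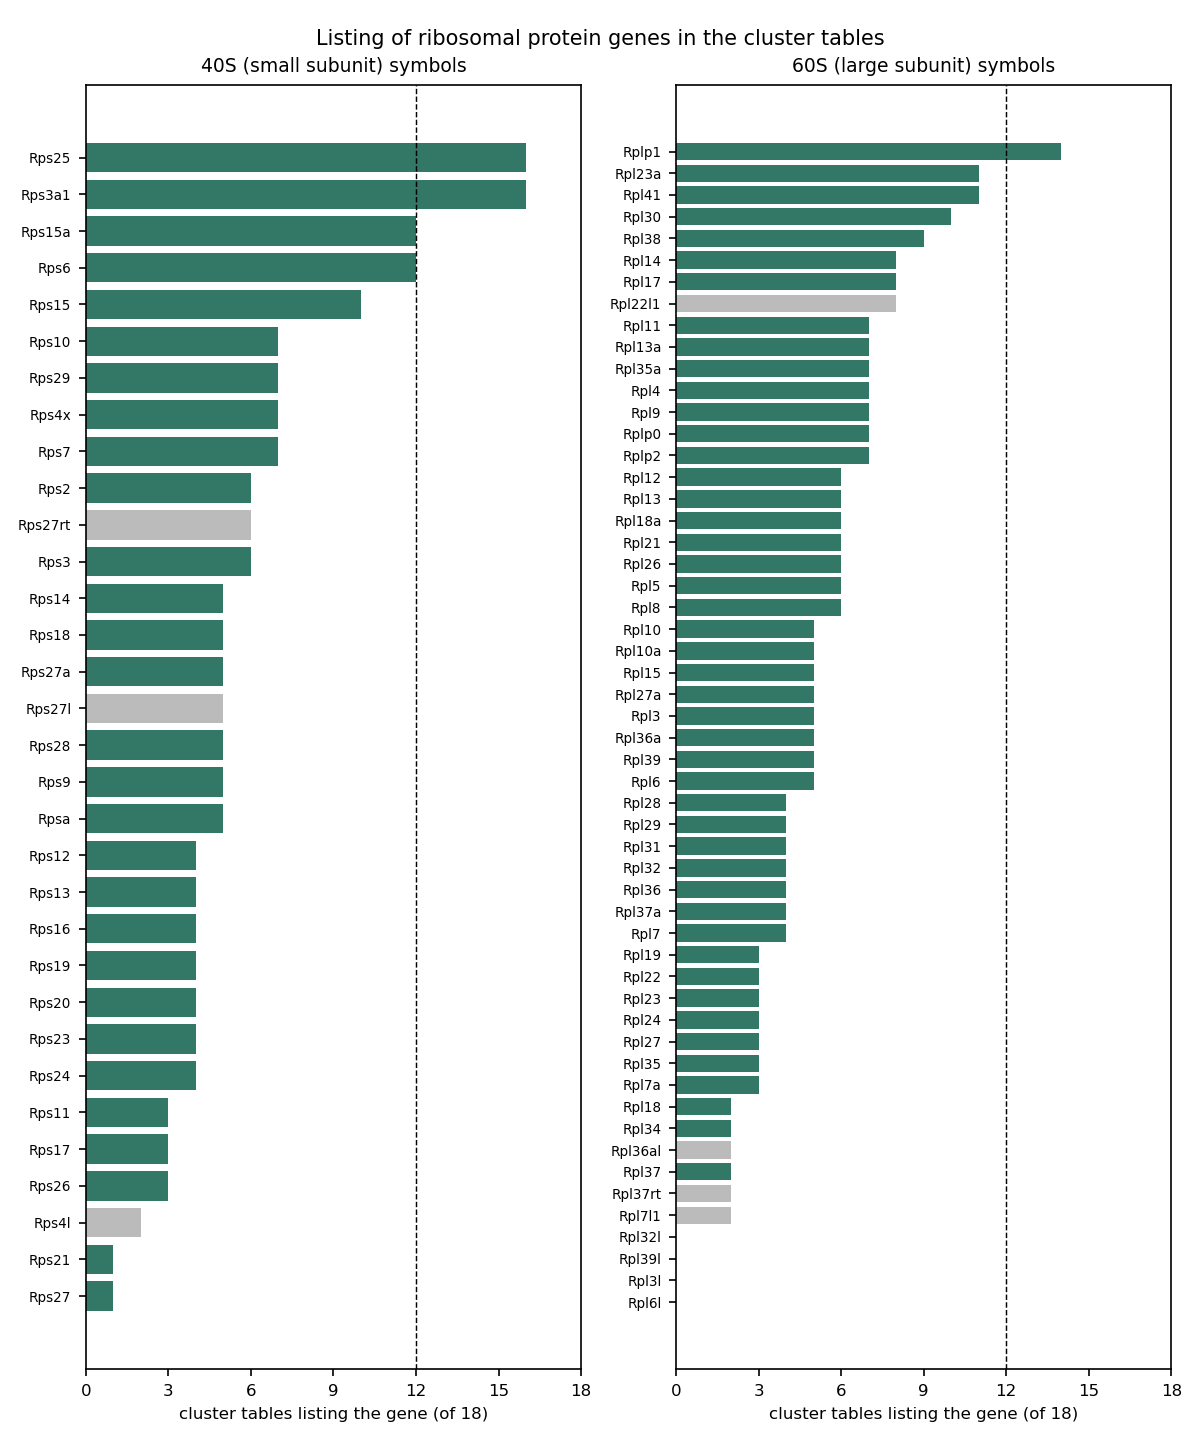
Number of the 18 cluster tables (x axis) that list the small subunit members (left) and large subunit members (right) reported here. Grey bars are paralog or retrocopy symbols and the dashed line marks 12 tables, which Rps25, Rps3a1, Rplp1, Rps15a and Rps6 reached among the members drawn.

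The number of members listed differed among clusters, and so did the length of the tables, from 159 genes for B cells to 1914 for dendritic cells. Over all 18 tables, members made up 479 of 15431 listed values (3.1%). Natural killer cells (cluster 14) listed 58 members (5.98% of the genes in that table), macrophages or monocytes of clusters 13, 0 and 3 listed 56 (6.27%), 55 (5.96%) and 38 (10.6%), T cells of cluster 4 listed 45 (10%) and neutrophils of cluster 18 listed 44 (3.09%). B cells listed only 18, which was 11.3% of their short table. Fibroblasts (cluster 5) listed 9 (1.49%). In T cell cluster 10 and in dendritic cells, the 15 and 19 members listed were 0.887% and 0.993% of the genes.

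Detection gave most of these listings no direction. Of the 479 listed values of members in the cluster tables, 349 (72.9%) stood at 100% of cells in both libraries, against 4.61% of all 15431 listed values. For Rps25, Rps3a1, Rplp1 and Rps15a together this held for 48 of 58 values, and their other values lay between 94.1% and 100%. The shares of Rplp0, Rplp2 and Rpsa were 100% in both libraries of every cluster that listed them. Share was lower in the library labelled depleted for 98 member values, higher for 31 and equal for 350. The 98 made up 20.5% of the members' values, while 49.9% of all listed values were lower. Members were apart in 26 values (5.43%), 17 lower and 9 higher, where 72.7% of all listed values were. Without cluster 18, 15 of 435 values were apart, 12 of them lower.

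Among the members outside the paralog symbols, Rps6 was the one listed in at least 12 clusters whose share stood below 95% in the library labelled depleted in every cluster that listed it. Rps6 is the small subunit protein whose phosphorylation by the S6 kinases is widely used as a readout of mTOR signalling. Its share was lower in the library labelled depleted in 12 of 12 listing clusters, with a median difference of -7.35 points and a range from -0.8 to -19.9. It was apart in macrophages or monocytes of cluster 0 (82.6% in the control library and 62.7% in the library labelled depleted), of cluster 3 (91.5% and 77%) and in natural killer cells (89.9% and 76.9%). In the remaining macrophage cluster that listed it, cluster 13, the shares were 95.8% and 85.9%. B cells gave 97.3% and 91.6%, and the T cell clusters 4, 7 and 8 gave 99.1% and 93.5%, 93.9% and 93.1%, and 98.8% and 91.7%. Fibroblasts gave 88.3% and 80.7%. Cluster 6, which the study describes by proliferation markers and proposes as proliferating T cells, and clusters 9 and 15, for which no cell type is used here, gave 92.6% and 87.9%, 94.1% and 91%, and 100% and 90.9%.

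Other listed genes of intermediate share went in both directions among the clusters that listed Rps6. Over listed genes with a mean share between 20% and 90%, the median difference ranged from -14.95 to 14.4 points among the clusters. It was positive in 6 of the 12 clusters that listed Rps6, among them clusters 0, 3 and 4 at 13.2, 9.3 and 14.4 points, and negative in the other 6. Rps6 itself had a mean share above 90% in most of these clusters, so the comparison is not like for like. Outside cluster 18, 83 member values, those of Rps6 included, were lower in the library labelled depleted and 13 were higher. No other member outside the paralog symbols had a share under 95% in a listed value outside cluster 18, except Rpl36a in cluster 13 (97.9% and 94.4%). The next largest differences were small. Rpl31 and Rpl36al were at 99.4% and 97.9% and at 99.7% and 98.5% in cluster 0, Rpl4 at 100% and 97.2% in cluster 13, and Rpl14 at 100% and 97.5% in cluster 12. In cluster 3 the shares of Rpl4 were 98.6% and 99.3%. These genes encode large subunit proteins. In fibroblast subclusters 0, 3, 4 and 5, normalized apart from the clusters, Rps6 was found in 100% of control cells and in 96.9%, 100%, 100% and 95.2% of cells of the library labelled depleted.

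Rps6-ps4, identical to the Rps6 coding bases printed above, was listed in 9 clusters and was lower in the library labelled depleted in 9 of 9, with a median difference of -23.3 points. Control shares ran from 41.8% to 87.5% and those of the library labelled depleted from 15.4% to 54.5%. The widest gap was in cluster 15, with 87.5% and 54.5%, and the narrowest in B cells, with 50% and 45%. In 2 of the 9 clusters it passed the minimum of 25% through the control library alone. Rps6 was listed in 7 of the 9 clusters too. In subclusters 0, 3, 4 and 5 the shares were 84.8% and 75%, 80% and 82.6%, 95% and 80%, and 91.3% and 95.2%, so the copy was lower in 2 of 4. Since a read from the coding part matches both genes, the values of Rps6 and Rps6-ps4 are uncertain as values of either gene alone.

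**Figure D2:**
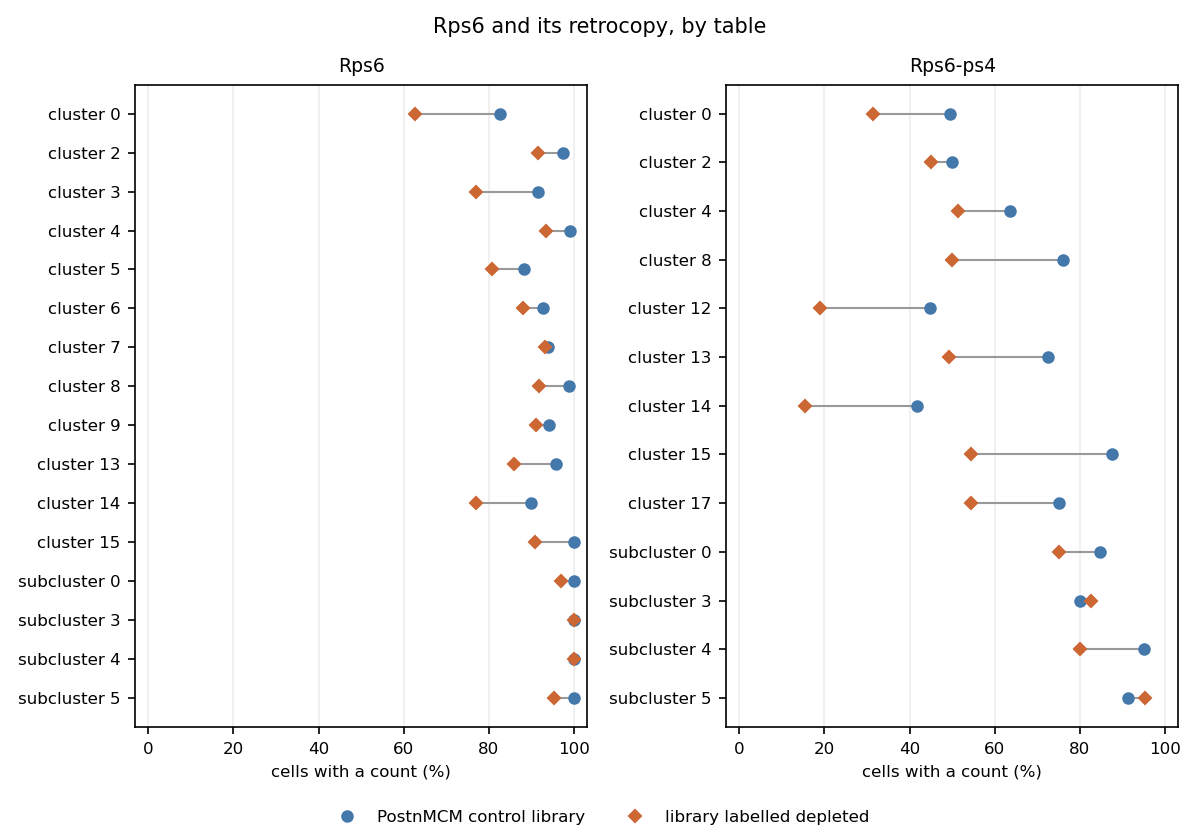
Share of cells with a count (x axis, percent) of Rps6 (left) and Rps6-ps4 (right) in each table that lists them, with circles for the PostnMCM control library and diamonds for the library labelled depleted. Rps6 is lower in the library labelled depleted in 12 of 12 clusters and Rps6-ps4 in 9 of 9.

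Fibroblasts were the cells in which Cre was active by design, and their subcluster tables held every member. Of the 89 members, 80 stood at or above 95% in both libraries of all 4 subclusters, and 79 at 100%. The median difference over members was 0 points in each. Members were apart in 4 cases in subcluster 0, where 20.6% of all genes and 24.4% of genes with a mean share of at least 50% were. In subcluster 3 there were also 4, where 30.2% of all genes and 33.8% of common ones were apart. Subcluster 4 had 3, where 45% and 50.1% were, and subcluster 5 had 5, where 35.5% and 40.5% were. Together 16 of 356 values (4.49%) were apart, 8 lower and 8 higher, and all belonged to a paralog or retrocopy symbol or to Rps19bp1. The other members stood at or above 95% in both libraries of every subcluster, so they could not be apart. The 4, 4, 3 and 5 values apart in subclusters 0, 3, 4 and 5 all fell among the 9 members below that level. The shares of all genes and of common genes are therefore no matched background for the 89.

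**Figure D3:**
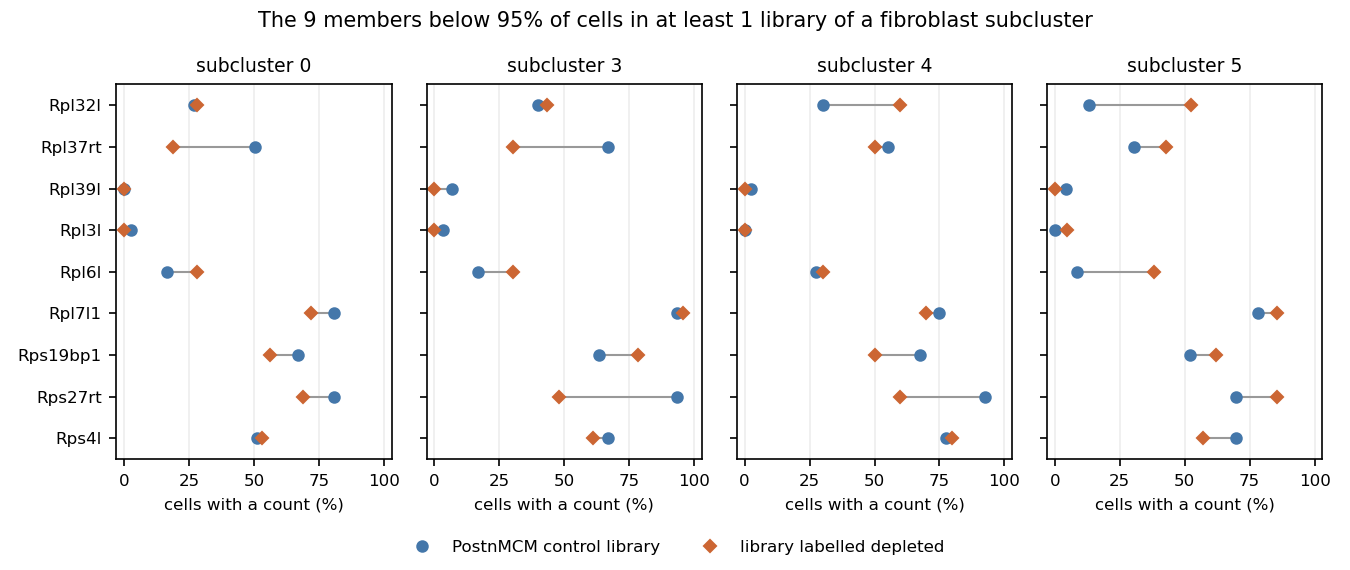
Share of cells with a count (x axis, percent) of the 9 members that stood below 95% in at least 1 library of fibroblast subclusters 0, 3, 4 and 5. Circles show the PostnMCM control library and diamonds the library labelled depleted, and Rps27rt is lower by 45.5 points in subcluster 3 and higher by 16.1 in subcluster 5.

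Rps27rt, the copy with the coding bases of Rps27, had the widest gap of these 9 in subclusters 3 and 4, whereas Rpl37rt did in subcluster 0 and Rpl32l in subcluster 5. Its shares were 80.7% and 68.8%, 93.3% and 47.8%, 92.5% and 60%, and 69.6% and 85.7% in subclusters 0, 3, 4 and 5. It was lower in the library labelled depleted in 3 subclusters and higher in 1. In the clusters it was lower in 5 of 6, with 60% and 39.4% in cluster 13, 63.5% and 36.5% in T cell cluster 4, 77.2% and 60.4% in T cell cluster 8, 50.3% and 31% in fibroblasts and 52.9% and 35.4% in cluster 9. Dendritic cells (cluster 17) went the other way, with 40% and 54.5%. Rps27 itself was at 100% in both libraries of the 4 subclusters and of its 1 listed cluster. Rps27l, a more distant paralog that shares 76.3% of aligned coding bases with Rps27, was at 100% throughout the subclusters and was listed in 5 clusters, lower in 3 and higher in 2. Outside cluster 18 its differences were all within 5 points, as in cluster 0 with 96.8% and 92.6% and cluster 12 with 82.3% and 87.3%.

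Rpl37rt, the copy of the large subunit gene Rpl37, was lower in subcluster 0 (50.3% and 18.8%), subcluster 3 (66.7% and 30.4%) and subcluster 4 (55% and 50%), and higher in subcluster 5 (30.4% and 42.9%). Both clusters that listed it, cluster 9 (41.2% and 20.6%) and dendritic cells (45% and 18.2%), had it lower, but in both it reached the authors' minimum of 25% through the control library alone, so that direction was set by the limit. Rpl32l and Rpl6l, processed pseudogenes with 96% and 98.7% identity to the coding bases of Rpl32 and Rpl6, were higher in all 4 subclusters. For Rpl32l the shares were 26.9% and 28.1%, 40% and 43.5%, 30% and 60%, and 13% and 52.4%. For Rpl6l they were 16.6% and 28.1%, 16.7% and 30.4%, 27.5% and 30%, and 8.7% and 38.1%. These near-identical copies therefore did not differ in 1 direction, while Rpl37, Rpl32 and Rpl6 were at 100% in every subcluster.

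Paralogs further from their source gene behaved unevenly. Rps4l, a relative of Rps4x with 79.8% identity, was at 51% and 53.1%, 66.7% and 60.9%, 77.5% and 80%, and 69.6% and 57.1% in the subclusters, at 47.3% and 37.4% in fibroblasts and at 9.4% and 27.3% in cluster 15, where it was listed through the library labelled depleted alone. Rpl7l1, a relative of Rpl7, stayed within 8.8 points in the subclusters but was lower in cluster 12 (30.2% and 16.5%, listed through the control library alone) and cluster 15 (53.1% and 27.3%). Rpl22l1, which resembles Rpl22, was at 100% in every subcluster. In the clusters it was lower in 5 of 8, for instance in cluster 3 (81.6% and 73.2%) and cluster 13 (88.4% and 78.9%), and higher in dendritic cells (75% and 100%). Rpl3l, known from striated muscle, did not exceed 4.8% in any subcluster, and Rpl39l, known from the testis, did not exceed 6.7%. Rps19bp1 was lower in subclusters 0 (66.9% and 56.2%) and 4 (67.5% and 50%) and higher in subclusters 3 (63.3% and 78.3%) and 5 (52.2% and 61.9%).

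In neutrophil cluster 18, unlike the other clusters, ordinary ribosomal proteins besides Rps6 and Rpl36a stood below 95%. It listed 44 members, of which 11 stood at 100% in both libraries, 15 were lower and 18 higher in the library labelled depleted. Of these, 11 were apart, against 81.4% of all 1426 genes listed there. Higher were the large subunit proteins Rpl3 (27.3% and 64.7%), Rpl7 (72.7% and 94.1%), Rpl36 (81.8% and 100%) and Rpl6 (81.8% and 94.1%) and the paralogs Rpl22l1 (18.2% and 52.9%) and Rpl36al (18.2% and 41.2%), the latter 87.9% identical to Rpl36a, which was at 54.5% and 47.1%. Both paralogs were under 25% in the control library there, so they were listed through the library labelled depleted alone and their direction was set by the authors' limit. Among those lower were Rps27l (72.7% and 35.3%) and the large subunit proteins Rpl10a (63.6% and 47.1%), Rpl12 (63.6% and 52.9%) and Rpl35a (100% and 88.2%). Members of the large subunit thus stood on both sides. These shares are coarse, as given above. In the other neutrophil cluster (cluster 1), 13 members were listed and none had a share below 99.4%.

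**Figure D4:**
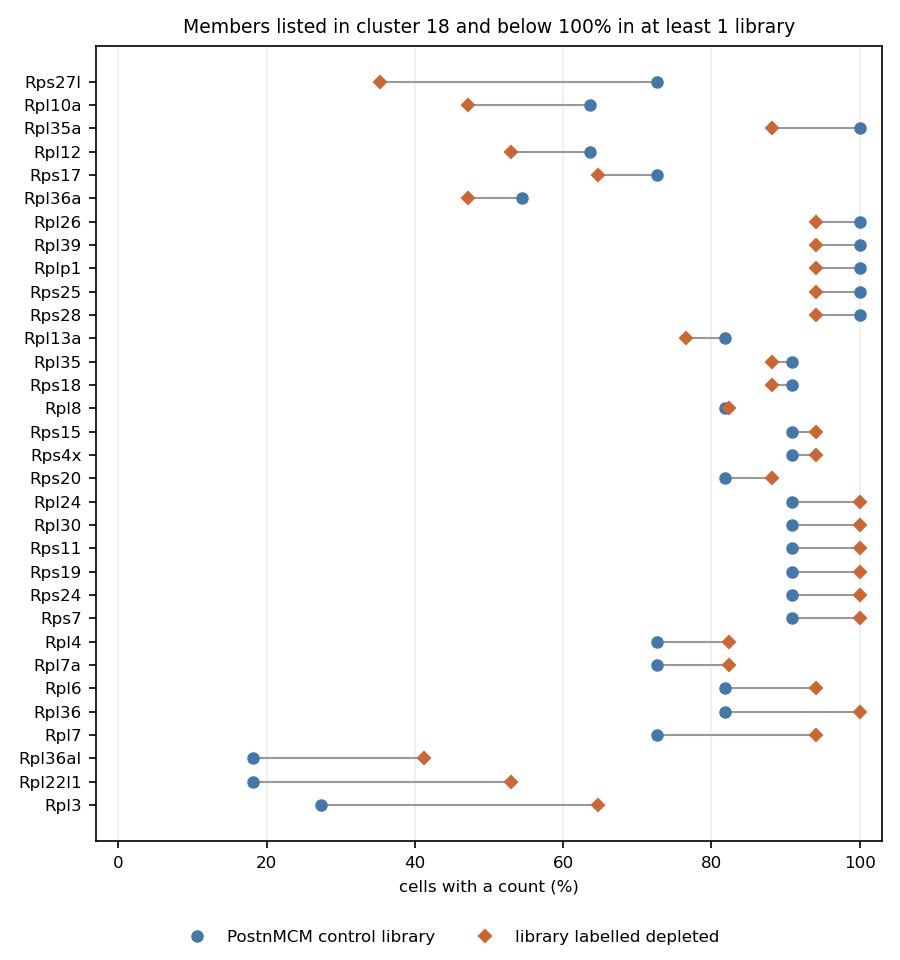
Share of cells with a count (x axis, percent) of 32 of the 33 members listed in neutrophil cluster 18 that were below 100% in at least 1 library, ordered by difference, with circles for the PostnMCM control library and diamonds for the library labelled depleted. Rps27l is lower by 37.4 points and Rpl3 higher by 37.4.

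A pair of -ps symbols outside the rule was listed in at least as many clusters as any member, and each was higher in the library labelled depleted in every cluster that listed it. Rpl34-ps1 was listed in 16 clusters and Rpl27a-ps4 in 17. Shares of Rpl34-ps1 ran from 0% to 29.4% in the control library and from 32.9% to 72.7% in the library labelled depleted, with differences of 17.2 to 60.5 points and a median of 38.35. In 15 of the 16 clusters the control share was under 25%, so the gene was listed through the library labelled depleted alone and its direction there was set by the authors' limit. Fibroblasts were among these 15, with shares of 4.4% and 60.4%. The subcluster tables had no such limit. In subclusters 0, 3, 4 and 5 the shares were 20.7% and 65.6%, 23.3% and 78.3%, 45% and 70%, and 21.7% and 85.7%. Rpl34 itself was listed in clusters 0 and 13 only, at 100% and 99.3% and at 100% in both, and was at 100% in the subclusters.

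Shares of Rpl27a-ps4 differed by 8.4 to 70.0 points over its 17 clusters, with a median of 39.2, and in 16 of them both libraries were at or above 25%. Fibroblasts gave 34.2% and 92%, cluster 3 gave 39.7% and 85.1%, dendritic cells gave 30% and 100%, and natural killer cells, the narrowest, gave 57% and 65.4%. In the subclusters the copy was found in 81.4% to 85% of control cells. The range was 90.6% to 100% in the library labelled depleted. Rpl27a was at 100% in both libraries of the 5 clusters that listed it. Both copies differ from their source gene at few bases, so their shares are uncertain as levels of a transcript of their own. Rps6-ps4, whose coding bases match its source in full, differed in the opposite direction in its 9 clusters.

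**Figure D5:**
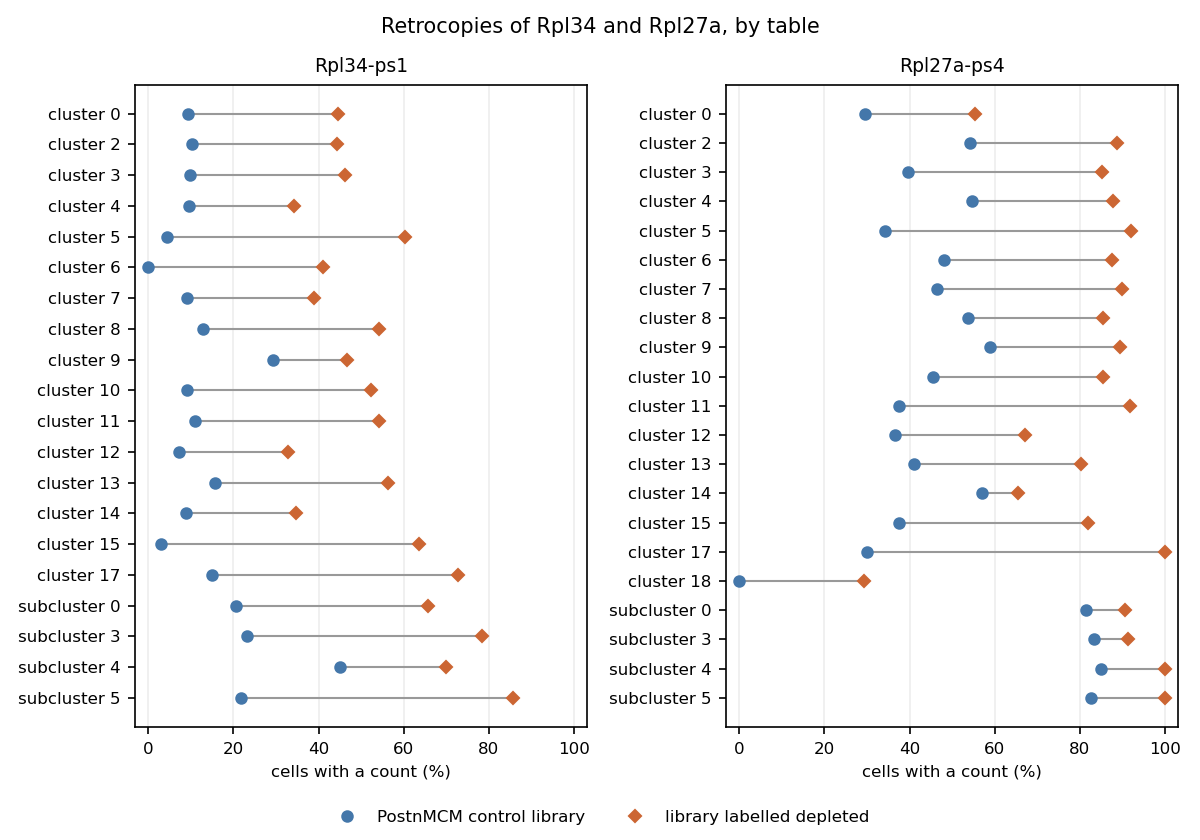
Share of cells with a count (x axis, percent) of Rpl34-ps1 (left) and Rpl27a-ps4 (right) in each table that lists them, with circles for the PostnMCM control library and diamonds for the library labelled depleted. Each is higher in the library labelled depleted in every table drawn, 16 clusters for Rpl34-ps1, 17 for Rpl27a-ps4 and 4 subclusters for both.

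Other genes of translation were also detected in most fibroblasts, with exceptions. Of a list of 23, among them Fau, whose product carries a ribosomal protein that the rule does not match, the small subunit protein Rack1, elongation factors and initiation factors, 19 to 20 stood at or above 95% in both libraries of each subcluster. In subclusters 0, 3, 4 and 5, the number apart was 0, 2, 3 and 1. Members outside the paralog symbols and Rps19bp1 all stood at or above 95% there and could not be apart. These counts therefore allow no comparison with them. Listings ran from 0 clusters for the kinase gene Mtor to 9 for Eif4ebp1, which encodes a repressor of cap-dependent translation under mTOR control. Eif4ebp1 was lower in 8 of these 9 clusters, for instance cluster 11 (68.1% and 31.2%) and cluster 13 (81.1% and 60.6%). In another 3 of the 8 it was listed through the control library alone. It was higher in dendritic cells (20% and 54.5%), where it was listed through the library labelled depleted alone. In the subclusters it gave 89% and 81.2%, 70% and 87%, 90% and 70%, and 100% in both. The 78 proteins of the mitochondrial ribosome, a separate machine, were apart in 26 (33.3%), 27 (34.6%), 40 (51.3%) and 39 (50%) cases in subclusters 0, 3, 4 and 5, where 20.6%, 30.2%, 45% and 35.5% of all genes were. Among genes with a mean share of at least 50%, 24.4%, 33.8%, 50.1% and 40.5% were apart, so subclusters 3 and 4 lay near that level.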

How the data were processed

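Interstitial cells of 2 mouse libraries, 1 per genotype, were captured on the 10x Chromium system with V3.1 chemistry. Per the labels and the study's methods, the authors aligned reads with Cell Ranger 6.1.1 to GRCm39 with added reporter sequences, joined both libraries without depth normalization, removed low-quality cells, normalized counts with SCTransform in Seurat and clustered them. The fibroblast cluster was normalized again to give subclusters, so shares were not compared between the sets except where stated. No doublet caller is named. The deposited fraction of cells with a corrected count above 0 was the only value used, multiplied by 100 and rounded to 1 decimal. The tables also hold the authors' average log2 fold change, p-value and adjusted p-value over cells, which were not used. Cluster 16 and subclusters 1 and 2 were not analysed here. Cluster names follow the study.

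Genes were matched by symbol. Differences of shares, counts of listings and values apart (10 points) were computed with pandas 2.3.3 under Python 3.11.15, after being tested on simulated data. Because each group held 1 library, no model, p-value or error was computed, and depth per library is not stated in the tables. With Biopython 1.88, copies were aligned locally (match 2, mismatch -2, gap opening -5, gap extension -1) to the coding bases of the canonical transcript of their source gene (GENCODE mouse release 39, GRCm39), while the authors used another annotation of that build. Identity is the share of identical bases among aligned and gap positions. Named genes were members in at least 12 of 18 cluster tables, up to 5 of the largest differences per table, members apart in both directions, paralogs, -ps symbols in at least 9 clusters, the stalk proteins and Rpsa. Rpl32l, Rpl37rt, Rpl6l, Rps19bp1, the pathway genes Eif4ebp1 and Mtor, and the members listed most or least after these were named after their values were seen. The members and lists were chosen with earlier results of these data known. A few genes that these rules would name are not reported here, though they stay in the counts.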

Additional observations from a re-analysis of the deposited data

Results flagged for a closer look

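Among the members, 4 symbols were apart in opposite directions in different populations, and the difference between populations was not tested in any of them. Rps27rt was lower by 45.5 points in subcluster 3 (a difference of -45.5) and higher by 16.1 in subcluster 5. Rpl37rt differed by -36.3 points in subcluster 3 and by 12.5 in subcluster 5. Rps19bp1 differed by -17.5 points in subcluster 4 and by 15 in subcluster 3. Rps4l differed by -12.5 points in subcluster 5 and by 17.9 in cluster 15, where it passed the 25% minimum through the library labelled depleted alone.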

How the results depend on the processing

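No paired analysis was possible because there was only 1 library per genotype. The 16 subcluster values apart became 7 at a limit of 20 points, 9 under a log2 ratio of shares of at least 0.5, 7 under a log2 ratio of the mean counts that a Poisson law would give, 0 without paralog symbols and Rps19bp1, and 8 without subclusters 4 and 5, an alternative chosen after seeing the data. They were 23 at 5 points and 16 when centred on common genes. The 26 cluster values apart became 55 at 5 points, 11 at 20 points, 11 without paralog symbols, 15 without both neutrophil clusters and 15 without cluster 18 alone, also chosen after seeing the data. Without clusters 6, 9 and 10, which the study ties mainly to 1 genotype, they were 24. The 6 members listed in at least 12 clusters became 11 at a minimum of 9, 3 at 15, and 8 without clusters 6, 9 and 10 at a minimum of 10 of 15.

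The median difference of members, 0 in each subcluster, became -0.61, -0.71, -0.31 and 1.1 as a mean in subclusters 0, 3, 4 and 5, and -2.8, -3.3, -2.5 and 9.7 without members at or above 95% in both libraries. Shares near 100% limit what detection can show, and without cell numbers no share carries an interval.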
